A study of Saccharomyces cerevisiae with 30 samples.

Results

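The 275 nuclear tRNA genes of budding yeast (Saccharomyces cerevisiae) were taken from the gene table of assembly R64, the same sequence as sacCer3, as every gene of type tRNA outside the mitochondrial genome. They were 275 of 299 tRNA genes, were 71 to 133 bp long and lay on all 16 chromosomes. Each gene was extended by 250 bp on either side, and a gene counted as having a peak when a deposited peak overlapped this window by at least 1 bp. The windows formed 269 separate stretches, because 12 genes shared a window with a neighbouring tRNA gene. The whole nuclear genome, cut into 21027 tiles of 573 bp, the median length of a window, gave the background.

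The series comprised 30 libraries, of which the 22 with a peak list were used; the other 8, made by NET-seq, were not used here. All strains were anchor-away strains, in which rapamycin draws a protein fused to the FRB tag out of the nucleus. Break-seq, a method that captures the ends of broken chromosomes, covered the genotypes WT-FRB, INO80-FRB, Mot1-FRB and INO80-FRB Mot1-FRB, called WT, INO80, Mot1 and the double strain here. Each gave 2 libraries from cells in 100 mM hydroxyurea (HU), a drug that depletes nucleotides and stalls replication forks, and 2 from cells without it. All 16 Break-seq libraries, WT included, came from cells given rapamycin for 3 h, so the contrast for a protein is between strains. ChIP-seq lists came from Orc5-FRB (1 library without and 1 with rapamycin) and Arp5-FRB (2 and 2). These cells were held in nocodazole (1 h) and then arrested in G1 by 5 µg/ml alpha factor (1 h), per the labels. Between these steps, cells of the libraries with rapamycin were depleted with 8 µg/ml of it (1 h), and those without were given none. The protocol mentions Orc2 as the depleted protein and lists antibodies against V5 and Arp5 without saying which list came from which, so "Orc5 peak" below means a peak of the Orc5-FRB lists. The labels do not say whether a strain is 1 clone.

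A tRNA gene carries its promoter inside the transcribed sequence. The assembly factor TFIIIC binds the internal A and B boxes, places TFIIIB just upstream of the start, and RNA polymerase III is recruited and recycled many times. These genes are largely free of nucleosomes, they can slow or stop replication forks, and the yeast retrotransposons Ty1 and Ty3 are known to insert upstream of them. Orc5 is a subunit of the origin recognition complex, which marks replication origins, Arp5 is a subunit of the INO80 chromatin remodelling complex, and Mot1 removes the TATA-binding protein, itself a part of TFIIIB, from DNA.

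The Break-seq lists of the WT, INO80 and double strains held 180 to 510 peaks and the 4 Mot1 lists only 5 to 40. The Orc5 lists held 1415 and 1968 peaks and the Arp5 lists 5290 to 6302. Peak lists carry no read totals, so sequencing depth is unknown, and how far list length followed depth was not tested. No 2 replicate Break-seq lists shared an identical peak. The gene table names no anticodon, so families could be formed only from genes with names of their own (47 of the 275), and no sequence is shown because no genome sequence was used.

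Most tRNA genes lay under an Orc5 peak, with and without rapamycin. Without rapamycin 231 of the 275 genes (84.0%, exact binomial 95% interval 79.1 to 88.1) had an Orc5 peak, beside 13.2% of genome tiles. With rapamycin 252 genes had one (91.6%, 87.7 to 94.6), beside 15.1% of tiles. The intervals cover counting error only, and with 1 library per condition the difference of 21 genes has no replicate check. Of all Orc5 peaks up to 10 kb wide, 226 of 1412 (16%) without rapamycin and 247 of 1965 (12.6%) with it lay at tRNA genes.

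The 2 lists named largely the same tRNA genes. Both lists had a peak at 227 genes (82.5%, beside 8.69% of tiles), rapamycin alone at 25 (9.09%, beside 6.43%), the untreated list alone at 4 (1.45%, beside 4.51%) and neither at 19 (6.91%). Of the untreated peaks at tRNA genes 220 of 226 (97.3%) were met by a peak of the rapamycin list, whereas 808 of 1186 untreated peaks elsewhere (68.1%) were. Counted by feature, 98.3% of the tRNA genes with an untreated peak also had one with rapamycin, compared with 71% of protein-coding gene starts, 87.0% of snRNA and snoRNA gene starts and 96.8% of cytosolic ribosomal protein gene starts. The share at ribosomal protein gene starts was thus close to that of tRNA genes, although only 22.5% of those starts had an untreated Orc5 peak.

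Orc5 peaks were centred on the tRNA gene itself. A peak covered the gene start in 79.6% of genes without rapamycin and in 83.3% with it, and the highest share with rapamycin, 84.4%, stood 20 bp past the start. The share was at 0.5 of its highest value 80 bp upstream and 130 bp downstream of the start in the untreated list, and at 70 and 140 bp with rapamycin. At 500 bp upstream it was 13.5% and 11.3%, and at 500 bp downstream 8.36% and 11.6%, beside 6.96% and 6.53% of all genome bases. The peak overlapped the gene body in 224 of 231 and 241 of 252 genes. Its centre lay within 100 bp of the centre of the gene in 178 (77.1%) and 188 (74.6%) of them. Peak width had a median of 220 bp (quartiles 176 and 386) and 239 bp (189 and 436), and peaks elsewhere had medians of 228 and 225 bp.

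**Figure D1:**
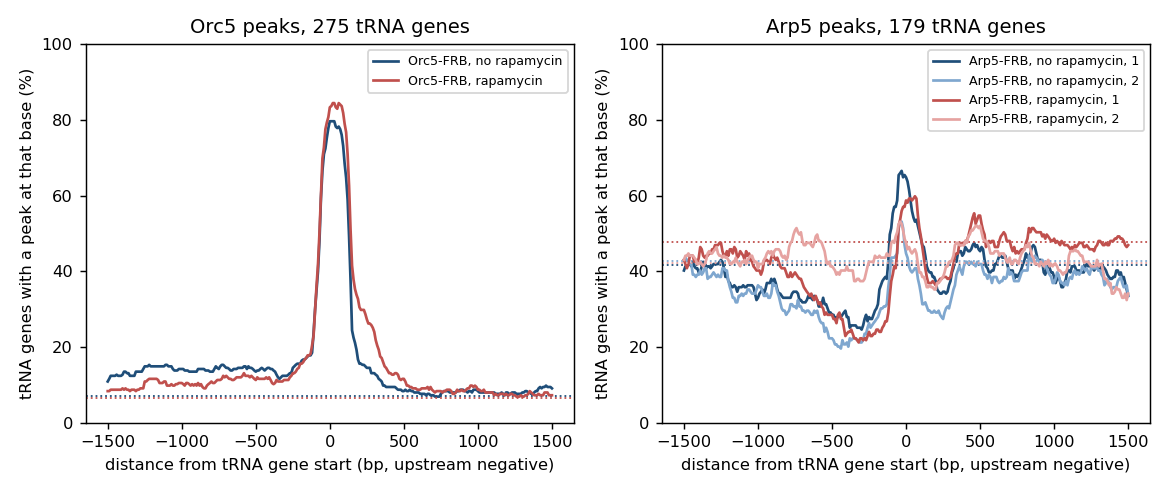
Percent of tRNA genes with a peak at each distance from the gene start (bp, upstream negative) for the 2 Orc5-FRB lists (left, 275 genes) and the 4 Arp5-FRB lists (right, 179 genes); dotted lines give the percent of genome bases under a peak in the same list. The Orc5 lines rise to 79.6% and 84.4% at the gene, while the Arp5 lines reach 53.1% to 66.5% near the start. At 250 bp the Arp5 share is lower upstream than downstream in 3 lists and higher in the second rapamycin list.

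With rapamycin the Orc5 peak was wider at most tRNA genes, and each edge lay farther out in more genes than nearer. Among the 227 genes with a peak in both lists, the downstream edge lay a median of 57.0 bp (quartiles 32.5 and 93) past the gene end without rapamycin and 73.0 bp (48.0 and 228) with it. It was farther out with rapamycin in 153 genes, nearer in 63 and equal in 11, and 53 genes had it over 100 bp farther out against 23 over 100 bp nearer. The upstream edge lay a median of 74 bp before the gene start without and 80.0 bp with rapamycin. It was farther out with rapamycin in 131 genes, nearer in 75 and equal in 21, with 23 genes over 100 bp farther out and 31 over 100 bp nearer. At 250 bp downstream of the start 14.5% of genes were covered in the untreated list and 27.3% in the rapamycin list, whereas at 250 bp upstream the shares were 14.5% and 13.1%. Peaks were wider with rapamycin in 147 of the 227 genes. Wider rapamycin peaks were also the more frequent away from tRNA genes (525 wider and 278 narrower), so the widening itself was seen in both places.

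The 4 tRNA genes that only the untreated list marked were YNCB0012W on chromosome II, YNCC0001C on III, and YNCG0003C and YNCG0007C on VII. Their untreated peaks were 87, 183, 397 and 221 bp wide, and the nearest rapamycin peak lay 2412, 3212, 2635 and 19124 bp away. The 25 genes marked only with rapamycin had peaks of 6 to 2302 bp with a median of 108 bp, less than the median over all tRNA genes, and 19 of these peaks overlapped the gene body. The first of them by position were YNCA0006C, YNCB0013W, YNCB0015W, YNCB0016W, YNCD0011W, YNCD0012W, YNCD0014C, SUP2, SOE1 and YNCG0020C. SUP2 is a tyrosine tRNA gene known for its nonsense suppressor alleles. YNCB0015W and YNCB0016W shared 1 peak, as did YNCD0011W and YNCD0012W.

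The 19 tRNA genes with no Orc5 peak in either list lay mainly on chromosomes VII and XII, with 6 on each. In order of position the first 10 were YNCB0007W, YNCC0008W, YNCC0009C, YNCD0015C, YNCG0002C, YNCG0016C, YNCG0030C, YNCG0032W, YNCG0042C and YNCG0046W. Their nearest untreated Orc5 peak lay 274 to 47137 bp from the gene over all 19, with a median of 7040 bp, and the nearest rapamycin peak 257 to 16385 bp away, with a median of 2971 bp. YNCG0030C, with a peak 274 bp away in both lists, and YNCG0042C, 257 bp away with rapamycin, fell just outside the window. YNCG0046W and YNCL0051C lay under an Orc5 peak over 10 kb wide, and such peaks were left out of all counts. IMT3, 1 of 4 genes of the initiator methionine tRNA, and EMT4, 1 of 5 elongator methionine genes, were among the 19.

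By chromosome, 57.1% to 100% of tRNA genes were marked without rapamycin. On chromosomes V, VI, XI and XV every tRNA gene (20, 10, 16 and 20 genes) had an Orc5 peak in both lists. The lowest share without rapamycin was on chromosome XII, with 12 of 21 genes (57.1%), and 15 of 21 (71.4%) had a peak with rapamycin. Chromosome II had 69.2% and 84.6%, and chromosome VII, with the most tRNA genes, had 26 and 28 of 36 (72.2% and 77.8%). On chromosome XII 5.74% and 5.10% of tiles had an Orc5 peak, the lowest of any chromosome, whereas on XV, with full marking of tRNA genes, 8.67% and 7.88% did. Chromosome III was the only chromosome on which fewer tRNA genes were marked with rapamycin (7 of 10) than without (8 of 10).

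**Figure D2:**
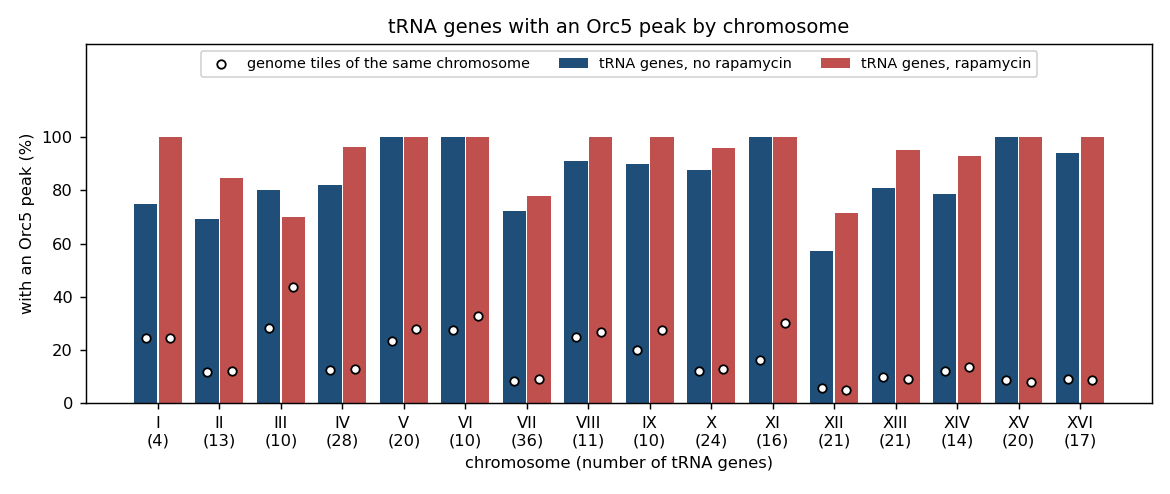
Percent of tRNA genes with an Orc5 peak by chromosome (bars; number of tRNA genes in brackets) without and with rapamycin, with the percent of genome tiles of the same chromosome that have one (open circles). Chromosome XII has the lowest bar without rapamycin (57.1%), and chromosomes V, VI, XI and XV reach 100% in both lists.

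Orc5 marking was also counted by gene length and surroundings. Of the 192 genes of 71 to 74 bp, 83.9% without and 90.1% with rapamycin had a peak, of the 40 genes of 82 to 92 bp 87.5% and 97.5%, and of the 43 genes of 96 bp or more 81.4% and 93%. Longer genes include those with an intron, since introns add to the length. All 17 genes of 71 bp were marked in both lists, while of the 39 genes of 74 bp 71.8% and 84.6% were; these lengths were picked after their values were seen. Genes between convergent, divergent and tandem protein-coding neighbours had shares of 83.3%, 83.1% and 84.2% without rapamycin. By name-based family, the 9 glycine SUF genes, the 4 serine and the 3 leucine SUP genes were all marked in both lists. The 8 tyrosine SUP genes, all 89 bp long, had 6 and 8 marked, the 7 proline genes (TRN1 and SUF) 6 and 7, EMT1 to EMT5 4 and 4, and IMT1 to IMT4 3 and 3. With 3 to 9 genes, families cannot be ranked against each other.

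Distance to unnamed reading frames of 5200 to 5450 bp, the length of the long frame of Ty1 and Ty2 and called Ty-length frames here, was the last property counted. Without rapamycin the share was 82.8% for the 29 genes within 1 kb of such a frame, 84.6% for 13 genes at 1 to 5 kb, 88.9% for 9 genes at 5 to 10 kb and 83.9% for the 224 farther away or on chromosomes without one. With rapamycin the shares were 96.6%, 84.6%, 88.9% and 91.5%.

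Other genes of RNA polymerase III were marked in part. RPR1 (the RNA of RNase P), SNR52 (a snoRNA), SCR1 (the RNA of the signal recognition particle) and the 5S rRNA gene RDN5-1 had an Orc5 peak in both lists. SNR6, the U6 snRNA gene, and the other 5 annotated 5S genes had none in either. The 5S genes lie in or beside the ribosomal DNA repeat, where reads cannot be assigned to 1 copy with certainty. The starts of 28 protein-coding genes for polymerase III subunits, TFIIIC, TFIIIB, TFIIIA and the repressor Maf1 had an Orc5 peak in 5 cases without rapamycin (17.9%) and in 8 with it (28.6%), beside 18.0% and 24.7% of all protein-coding starts. RPC17, RPC19 and TFC1 had one in both lists, RPC34 and TFC3 only without rapamycin, and RPC10, RPC25, RPC37, RET1 and TFC4 only with it. RPC17 lies 196 bp from a tRNA gene.

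Arp5 peaks lay at most tRNA genes, but at a share close to that of the genome. On the 11 chromosomes present in all 4 lists there were 179 tRNA genes. Without rapamycin 143 (79.9%) and 123 (68.7%) of them had an Arp5 peak, beside 70.4% and 72.2% of tiles. With rapamycin, 144 (80.4%) and 136 (76.0%) did, beside 80.0% and 70.7%. The first untreated list was above its background and the second below it, so the 2 replicates disagreed on the sign of the difference. Starts of protein-coding genes were more often marked than tRNA genes in all 4 lists, with 81.8%, 82.6%, 89.8% and 85.0%.

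The number of marked tRNA genes was 133 ± 14.1 (SD, n = 2) without rapamycin and 140 ± 5.66 (SD, n = 2) with it. The groups overlapped, and the difference of 7 genes was within the spread between replicates (exact two-sided permutation test, p = 0.667, where 0.333 is the smallest this design allows). Leaving out chromosomes I, III and VI, which held most of the Arp5 peaks over 10 kb, gave 142 and 122 of 155 genes without and 128 and 134 with rapamycin, and the sign of the difference turned (-1 gene). SUF9, a proline tRNA gene on chromosome VI, and HSX1, on chromosome X, had a peak in both rapamycin lists and in neither untreated list (1.12% of genes, beside 3.19% of tiles). No tRNA gene met the opposite rule (beside 1.41% of tiles). In all, 109 tRNA genes had an Arp5 peak in every list and 14 in none. The share of tiles meeting these 2 rules was not counted, so neither number is a result about tRNA genes. Of the 14 genes, 2, 3 and 3 lay on chromosomes I, III and VI, where many peaks over 10 kb were left out, and 6 on VII.

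By chromosome, Arp5 marking of tRNA genes ran from 0 to all genes. On chromosome XI 15 or 16 of 16 tRNA genes had a peak in each list and on chromosome X 22 or 23 of 24, beside 90.1% to 97.8% of tiles on these chromosomes. On chromosomes I and VI no tRNA gene (of 4 and 10) had one in either untreated list, where 4 to 9 peaks over 10 kb per list were left out of the counts. Such wide peaks held 23, 23, 7 and 22 of the 179 tRNA genes in the 4 lists. On chromosome XV all 20 tRNA genes had a peak in the first untreated list but only 10 in the second, and 13 and 16 with rapamycin, while tiles stood at 55% to 65.5%. That chromosome gave 10 of the 20 genes by which the 2 untreated lists differed.

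Around the gene start the Arp5 share had a maximum near the start, and in 3 of the 4 lists a trough upstream. The highest value lay 30 bp upstream of the start in both untreated lists (66.5% and 53.1%), 60 bp downstream in the first rapamycin list (59.8%) and 40 bp upstream in the second (53.1%). At 500 bp downstream the share was 45.3% and 41.9% in the untreated lists. In the rapamycin lists it was 54.7% and 52.0% there, not far below the highest value. At 500 bp upstream it was 28.5% and 22.3% in the untreated lists and 28.5% and 41.3% in the rapamycin lists. The upstream side was thus the lower one at 500 bp in all 4 lists. At 250 bp upstream it was 27.9%, 26.3%, 24.0% and 42.5%, and at 250 bp downstream 34.6%, 27.4%, 38.5% and 38.5%. At 250 bp the upstream value was thus the lower one in the untreated lists and the first rapamycin list. The gap was small in the second untreated list, and in the second rapamycin list the upstream value was the higher one. All genome bases under a peak came to 41.7%, 42.7%, 47.6% and 42.1%. The authors' enrichment of the peaks at tRNA genes had medians of 5.68, 5.52, 4.62 and 5.16, beside 4.33, 4.36, 4.28 and 4.14 over all peaks of the same lists. Of the tRNA genes on these chromosomes, the 147 with an Orc5 peak in both lists had an Arp5 peak in a mean of 3.18 of the 4 lists, and the 12 with no Orc5 peak in a mean of 1.92. Of these 12, YNCC0008W and YNCC0009C lie on chromosome III, where 1 of 10 tRNA genes was marked in 3 of the 4 lists, and the part of chromosome in this difference was not tested.

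Few tRNA genes had a break peak in any library. Without HU, the 2 WT libraries had one at 12 and 5 tRNA genes (4.36% and 1.82%, beside 3.04% and 2.36% of tiles), and with HU at 12 and 8 (4.36% and 2.91%, beside 2.31% and 2.09%). The INO80 libraries had one at 5 and 4 genes (1.82% and 1.45%, beside 2.33% and 2.07%), and with HU at 11 and 6 (4.00% and 2.18%, beside 2.28% and 2.38%). The double strain had 2 and 5 genes (0.727% and 1.82%, beside 2.20% and 2.20%), and with HU 4 and 3 (1.45% and 1.09%, beside 1.53% and 1.06%). Of the Mot1 libraries the first without HU had a break peak at 2 genes (0.727%, beside 0.285%). The other 3 had none, which allows up to 1.09% of genes by a floor of 3 counts of 275 and up to 1.33% by the exact binomial 95% interval, beside 0.124%, 0.190% and 0.0618% of tiles. Replicates of a group differed by up to 7 genes, and the lists ranged from below to above their background. That background includes repeats, namely Ty-length frames, ribosomal RNA genes of chromosome XII and the last 10 kb of chromosomes. Of the 275 windows, 274 touched none of these. Outside them the 12 lists other than Mot1 held 23 to 203 nuclear peaks, and 10.9% ± 4.14 (SD, n = 12) of those lay at tRNA genes. A share of tiles outside repeats is not given here, so the tile values do not show where tRNA genes stand among non-repeat sequence.

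The share of tRNA genes with a break peak was lower with Mot1 depleted, and the tile background was lower too. It was 0.727% ± 0.701 (SD, n = 8) in the Mot1 and double strains and 2.86% ± 1.22 (SD, n = 8) in the WT and INO80 strains, a difference of -2.14 percentage points with the same sign in 4 of 4 strata (exact stratified permutation test, two-sided, p = 0.00463, Benjamini-Hochberg adjusted p = 0.0278 over 6 tests). The tiles stood at 0.956% ± 0.923 and 2.36% ± 0.300 in the same libraries. Without the 4 lists of fewer than 50 peaks, all from the Mot1 strain, the difference was -1.09 points (exact permutation p = 0.167, adjusted p = 0.458, where 0.0556 is the smallest p possible and no outcome could have passed). With the tile share subtracted library by library it was -0.735 points (exact permutation p = 0.0849, adjusted p = 0.106). The call was also lost without the second Mot1 library (adjusted p = 0.111 by the exact permutation test) or without either double-strain library with HU (adjusted p = 0.0556 each by the exact permutation test). Treating the replicate number as a block ended the call as well.

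HU and INO80 depletion gave no call. With HU 2.0% ± 1.67 of the tRNA genes had a break peak and without it 1.59% ± 1.3 (SD, n = 8 each; difference 0.409 points, exact permutation p = 0.435, adjusted p = 0.870). With INO80 depleted the share was 1.82% ± 0.991 and with INO80 present 1.77% ± 1.90 (SD, n = 8 each; difference 0.0455 points, exact permutation p = 1.00, adjusted p = 1.00). Expressed as the percent of nuclear break peaks that lay at a tRNA gene, the differences were 0.138 points for HU, -0.0961 for INO80 and -0.966 for Mot1 (exact permutation p = 0.917, 0.909 and 0.201, adjusted p = 1.00, 1.00 and 0.602). In the WT strain that percentage was 2.47 and 1.45 without HU and 3.23 and 3.15 with it, and in the Mot1 strain 5.00, 0, 0 and 0, where 5.00 stands for 2 of 40 peaks.

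Breaks at tRNA genes fell into a small recurrent set and a larger set seen once. In at least 1 of the 16 lists 35 of the 275 tRNA genes had a break peak (12.7%, beside 5.42% of tiles), and 240 had none in any list. Of the 35, 26 had it in 1 list, 4 in 2 lists and 5 in 4 or more (1.82%, beside 2.43% of tiles), of which 3 had it in 11 or more (1.09%, beside 1.03%). The 5 recurrent genes accounted for 45 of the 79 gene and list pairs. In the INO80 libraries without HU every tRNA gene with a break peak (5 and 4) belonged to these 5, whereas in the first WT library with and the first without HU 9 of 12 did not.

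**Figure D3:**
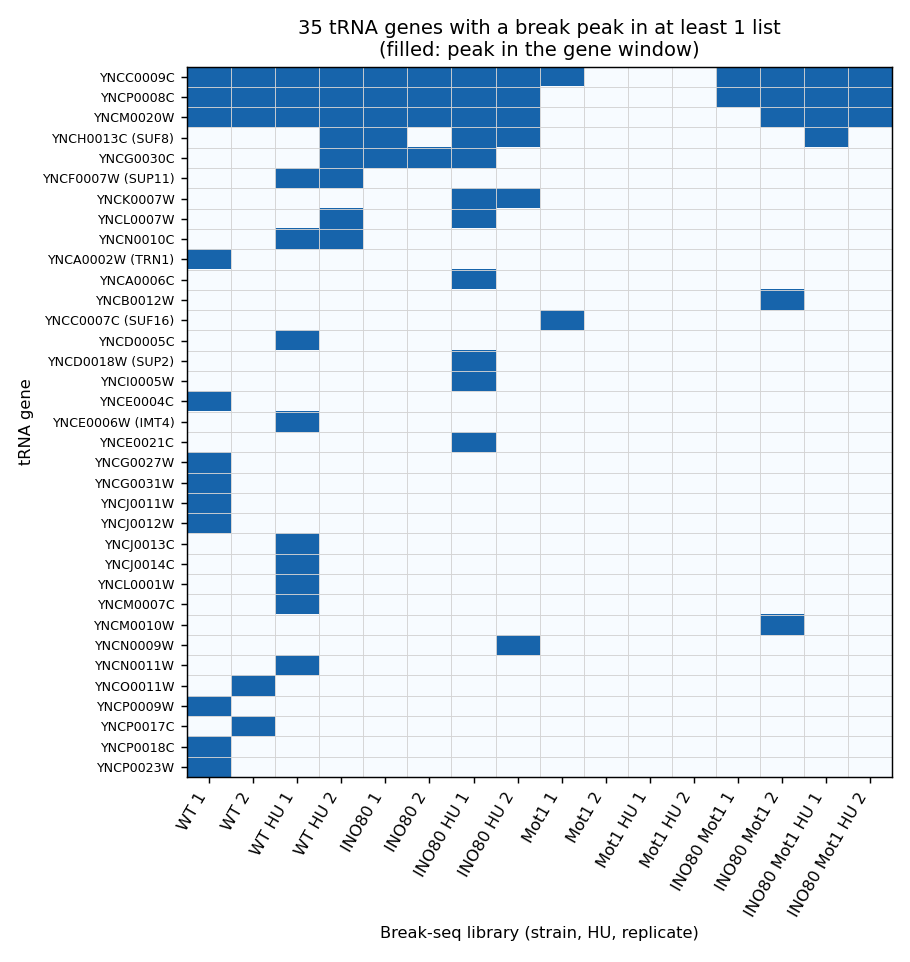
The 35 tRNA genes with a break peak in at least 1 list (rows) across the 16 Break-seq libraries (columns, by strain, HU and replicate); a filled cell marks a break peak overlapping the gene window. The top 3 genes are filled in 11 to 13 lists, and 26 genes are filled in 1 list each.

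The most recurrent was YNCC0009C (chromosome III, 151284 to 151356, minus strand), broken in 13 lists, that is all 12 of the WT, INO80 and double strains and the first Mot1 list. Its peaks had an authors' fold over local background of 4.64 to 8.66 with a median of 7.30, at or above the 80.0th percentile of their own lists and at a median of the 99.7th. YNCP0008C (XVI, 560198 to 560289, minus strand) was broken in the same 12 lists other than Mot1, with folds of 3.06 to 6.82 and a median of 4.59. YNCM0020W (XIII, 363064 to 363135, plus strand) was broken in 11 lists, with folds of 2.58 to 3.86 and a median of 3.24. SUF8 (VIII, 388893 to 388995, minus strand), a proline tRNA gene, was broken in 5 lists and YNCG0030C (VII, 707108 to 707179, minus strand) in 4. The 3 genes broken most often thus showed it in both replicates of WT and of INO80, with and without HU.

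All breaks at the recurrent tRNA genes lay on the upstream side and none on the gene. Their 45 peaks were upstream without exception, with 112 to 246 bp between the peak and the gene, and were 145 to 332 bp wide. At YNCC0009C they lay between 151553 and 151850, at YNCP0008C between 560491 and 560827, and at YNCM0020W between 362714 and 362897. At the 30 genes broken in 1 or 2 lists, the 35 pairs of a peak and a gene were distributed over both sides and the gene, with 15 upstream, 12 over the gene body and 8 downstream. None of the 45 recurrent peaks overlapped an Orc5 peak of either list, although YNCP0008C, YNCM0020W and SUF8 had an Orc5 peak on the gene itself, and YNCC0009C and YNCG0030C had none. In 22 of the 35 other pairs the peak overlapped an Orc5 peak of the untreated list, and in 22 one of the rapamycin list. The 5 genes were chosen by their number of lists, so these positions are a description. The 45 peaks came from these 5 genes, each called again in 4 to 13 lists, and are not independent of each other. The share of all break peaks that overlap an Orc5 peak is not given here, so the overlap counts have no background.

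Break peaks were more frequent on the upstream side beyond the window as well. A peak that crossed the window edge counted in both places, as at YNCC0009C (13 lists), YNCP0008C (12) and YNCM0020W (11). In the stretch from 251 to 1500 bp upstream, 30.6 ± 6.71 (SD, n = 12 lists) tRNA genes had a break peak, and in the matching downstream stretch 1.83 ± 2.89. As a share of the 275 genes this was 7.64% to 14.5% upstream and 0 to 3.64% downstream, beside 1.57% to 4.70% of genome tiles of 1250 bp in the same 12 lists. The upstream count was above the downstream count in 14 of 16 libraries, and the 2 Mot1 libraries with HU had none on either side. Averaged over the 12 lists, up to 6.42% of tRNA genes were under a break peak at a given base upstream, with the maximum 1200 bp before the start, and at most 0.273% from 300 to 1500 bp downstream. Break peaks covered 1.08% of all nuclear bases on average. In at least 1 list 65 of the 275 tRNA genes had an upstream break peak of this kind and 19 of the 275 a downstream one. Of the 1250 bp tiles 7.75% had one, so the downstream count was near the background.

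**Figure D4:**
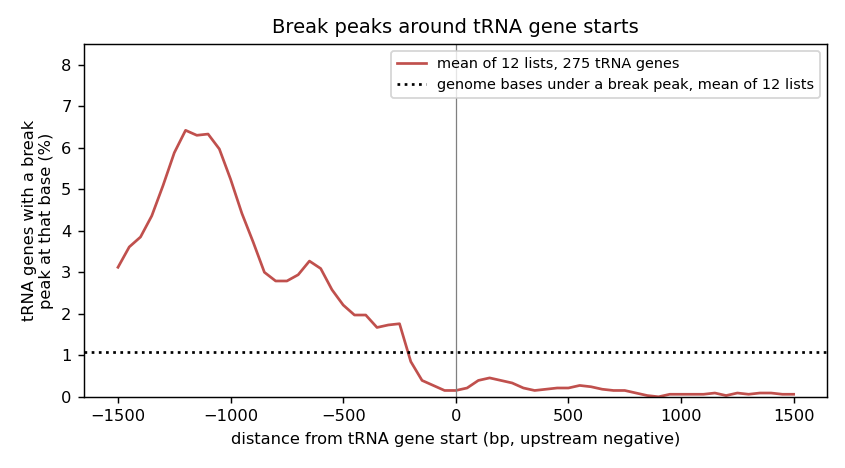
Percent of the 275 tRNA genes under a break peak at each distance from the gene start (bp, upstream negative), mean of the 12 lists other than Mot1, with the mean percent of nuclear bases under a break peak (dotted). The line reaches 6.42% at 1200 bp upstream and stays at or below 0.273% from 300 bp downstream.

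Ty-length frames were on the same side. Such a frame reached into the upstream stretch of 31 tRNA genes and into the downstream stretch of 1. In the 12 lists, 20.9 ± 3.29 (SD, n = 12) of the tRNA genes with an upstream break peak had a Ty-length frame in that stretch and 9.67 ± 5.40 had none. Without the genes that have a frame, the upstream count exceeded the downstream count in all 12 lists, at 4 to 21 genes upstream and 0 to 10 downstream. Those upstream counts were 1.64% to 8.61% of the 244 genes without a frame, above the share of all 1250 bp tiles in 6 of the 12 lists and below it in the other 6. Tiles that hold no Ty-length frame stood lower, at 0.668% to 3.51%, and the upstream share was above theirs in 12 of 12 lists. Beside all tiles, the upstream share of genes without a frame was thus near the background, but all tiles include those with a frame. Beside tiles without a frame it was higher, with means of 3.96% for the genes and 1.58% for the tiles over the 12 lists. SUP53 (leucine), YNCG0025C, YNCL0032C, SUF6 (glycine) and EMT2 (elongator methionine), each within 1 kb of a Ty-length frame, had an upstream break peak in 12 or 13 lists. YNCC0009C, YNCL0004C and YNCP0008C had one in 12 or 13 lists without a Ty-length frame there. At YNCC0009C and YNCP0008C these included the peaks already counted in the gene window. Ty sequences are repeated, reads within them cannot be placed in 1 copy with certainty, and long terminal repeats on their own were not analysed here. Ty reading frames of other lengths were not counted either, so a gene without a Ty-length frame may still lie beside Ty sequence. Unnamed reading frames outside this length range lay next to some tRNA genes, such as YLR035C-A beside YNCL0004C and YGR109W-B beside YNCG0030C. Of the 35 tRNA genes with a break peak in the gene window, 2 (5.71%) lay within 1 kb of a Ty-length frame, beside 29 of all 275 tRNA genes (10.5%).

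**Figure D5:**
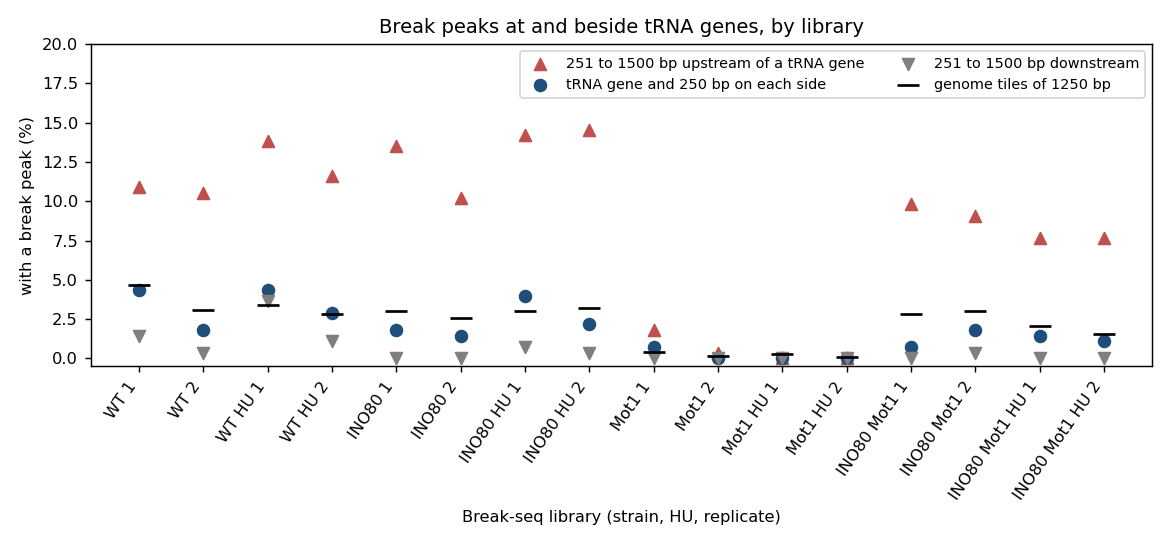
Percent of the 275 tRNA genes with a break peak in the gene window (circles), 251 to 1500 bp upstream (upward triangles) and 251 to 1500 bp downstream (downward triangles), with the percent of 1250 bp genome tiles (dashes), for each Break-seq library. In the 12 lists other than Mot1 the upstream values lie between 7.64% and 14.5% and above every tile value.

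By strain, 30 and 29 tRNA genes had an upstream break peak in the WT libraries, 38 and 32 with HU, 37 and 28 in the INO80 libraries, 39 and 40 with HU, 27 and 25 in the double strain, 21 and 21 with HU, and 5, 1, 0 and 0 in the Mot1 libraries. The share of 1250 bp tiles with a break peak was 2.59% to 4.70% in the WT and INO80 libraries, 1.57% to 3.02% in the double strain and 0.0727% to 0.436% in the Mot1 libraries, so the background was lower with Mot1 depleted too. The mean number of genes was 12.5 with Mot1 depleted and 34.1 with Mot1 present, a difference of -21.6 genes (exact stratified permutation test, p = 0.00154, the smallest it can give, adjusted p = 0.00463 over 6 tests chosen after the data were seen). Without the 4 short Mot1 lists the difference was -12.5 genes (exact permutation p = 0.0556, the smallest this reduced design can give, adjusted p = 0.111), so no outcome could have passed, with the 4 double-strain libraries at 21 to 27 genes and the 8 others at 28 to 40. With INO80 depleted the mean was 29.8 and with INO80 present 16.9, a difference of 12.9 genes (exact permutation p = 0.00926, adjusted p = 0.0185). Without the short lists it was 3.75 genes (exact permutation p = 0.333, adjusted p = 0.478, smallest p possible 0.0556). HU gave a difference of 1.12 genes (exact permutation p = 0.639, adjusted p = 0.639). At tRNA genes without a Ty-length frame upstream, HU gave 9.12 against 5.62 genes (exact permutation p = 0.0833, adjusted p = 0.125), INO80 depletion 8.25 against 6.5 (adjusted p = 0.300 by the same exact permutation test) and Mot1 depletion 2.62 against 12.1, a difference of -9.50 genes (adjusted p = 0.00463).

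Break peaks gained or lost at a tRNA gene, by the rule of a peak in both libraries of 1 group and in neither of the other, concerned 7 genes over all 12 comparisons (2.55%, beside 2.73% of tiles). With HU in the WT strain SUP11, a tyrosine tRNA gene, and YNCN0010C gained a peak (0.727% of genes, beside 0.233% of tiles). Both were lost with INO80 depleted in HU (0.727%, beside 0.147%), where YNCK0007W was gained (0.364%, beside 0.214%). YNCK0007W was also gained with HU within the INO80 strain (beside 0.109%), and YNCG0030C with INO80 depleted without HU (beside 0.171%). In the double strain compared with INO80, YNCG0030C was lost without HU (beside 0.114%) and YNCK0007W with it (beside 0.518%). Against the short Mot1 lists, WT without HU had YNCM0020W and YNCP0008C (beside 1.67%), and WT with HU had these and YNCC0009C, SUP11 and YNCN0010C (1.82%, beside 1.49%). The double strain had YNCP0008C without HU (beside 1.66%) and YNCC0009C, YNCM0020W and YNCP0008C with it (1.09%, beside 0.832%). These comparisons share libraries, so the counts are not independent of each other.

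Break peaks at SUP11 and YNCN0010C in the 2 WT libraries with HU were mostly wider than the recurrent ones. They were not confined to the upstream side either. At SUP11 they were 394 and 644 bp wide, on the gene or downstream of it, with folds of 2.46 and 2.92, and at YNCN0010C they spanned 239 to 1257 bp on and around the gene with folds of 2.34 to 3.39. At both genes they overlapped Orc5 peaks of both lists. The folds at these 2 genes overlapped those of the recurrent YNCM0020W (2.58 to 3.86), and no difference from the recurrent peaks was tested. YNCK0007W had peaks of 164 and 165 bp upstream of the gene with folds of 3.07 and 3.09. As at the recurrent genes, they overlapped no Orc5 peak, although YNCK0007W itself had an Orc5 peak in both lists. By Orc5 class, 27 of 227 genes with Orc5 peaks in both lists (11.9%) and 2 of 19 with none (10.5%) had a break peak in at least 1 list. Of the other sets, 5 of 25 marked only with rapamycin and 1 of 4 marked only without it did.

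By length and family, 5 of the 7 tRNA genes of 103 bp had a break peak in at least 1 list, among them the proline genes TRN1 and SUF8, a length picked after its values were seen. Named genes broken in 1 list were TRN1, SUF16 (glycine), SUP2 and IMT4. Of the 28 genes of the polymerase III machinery, only 1, TFC3, the largest TFIIIC subunit, had a break peak at its start, in 2 libraries. Among all protein-coding starts 5.06% had one in at least 1 list, so this 1 gene is not a result about the machinery. Among other polymerase III genes RPR1 had one in the first WT library, RDN5-2 in all 12 lists other than Mot1, RDN5-1 in 2 Mot1 lists and RDN5-4 in 1 list. For comparison, 5.42% of tiles had a break peak in at least 1 list.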

How the data were processed

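Peak lists of 16 Break-seq, 2 Orc5 and 4 Arp5 libraries were used, 1 per library and not pooled. Bowtie2 and sacCer3 are the tool and build in the submitters' processing notes, and the peak caller is not given in the sources used here. Break-seq lists as deposited give a score per peak, its fold over local background, and its p-value and q-value as −log10. In the Arp5 lists, per the file headers, a peak comes with read counts, an enrichment ratio over control, a log-scale value and a q-value. For Orc5 the authors deposited coordinates alone. All such values belong to the authors and served to describe or rank peaks within 1 list.

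Overlaps of at least 1 bp were counted in Python 3.11.15 (numpy 2.4.6, pandas 2.3.3, scipy 1.17.1). Orc5 and Arp5 peaks over 10 kb were left out, and Arp5 was compared on 11 chromosomes. Effects in Break-seq were differences averaged over strata of the other factors, tested by exact permutation within strata (1296 arrangements) with Benjamini-Hochberg adjustment and a threshold of 0.05. The procedures were tested on simulated data. No label says that replicates were separate cultures, so p-values may measure technical spread. Alternatives were windows of 0 or 500 bp, peak midpoints, stricter peaks, repeats or short lists left out, each library left out and a replicate block.

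Members, gene lists, families and tests were chosen with earlier results of these data known. Genes qualified for naming by the number of lists with a break (up to 10), by gain or loss, by Orc5 class in order of position (up to 10 each), by having a gene name of their own, or as members of the polymerase III list. Strand was read from the systematic names, and the gene table (6477 genes, R64) gave names and positions.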

Additional observations from a re-analysis of the deposited data

Results flagged for a closer look

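Arp5 peaks also lay in data outside the comparisons. Of the 24 mitochondrial tRNA genes, 17 and 22 had an Arp5 peak in the untreated lists and 14 and 11 in the rapamycin lists, while the 2 Orc5 lists had no mitochondrial peak; no control library was analysed here for comparison. On chromosomes V and XVI, which not all 4 Arp5 lists cover, the second rapamycin list had an Arp5 peak at 31 of 37 tRNA genes. Neither was tested.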

How the results depend on the processing

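Orc5 counts stayed within 1.5 times of the counts given under every alternative tried (198 to 233 genes without and 231 to 254 with rapamycin). The Mot1 effect on the percent of tRNA genes with a break kept its sign but lost its call with the gene body alone (-0.364), peak midpoints (-1.09), lists under 50 peaks left out (-1.09, a design that could not pass), the replicate block (-2.14, exact permutation adjusted p = 0.0938), the 5 recurrent genes left out (-1.3) and tiles subtracted (-0.735), the last 2 chosen after seeing the data; it ranged from -2.45 to -1.82 with 1 library left out. The INO80 effect on that percent, never called, turned sign with the gene body (-0.364), midpoints (-0.364), without recurrent genes (-0.648), without short lists (-1), with tiles subtracted (-0.652) and in some sets with 1 library left out (-0.273 to 0.364); the HU effect did with the gene body (-0.273). As percent of nuclear peaks, the HU effect turned with the gene body (-0.179), 500 bp (-0.433) and midpoints (-0.0310), and the INO80 effect with 500 bp (0.714), peaks above the median score (0.694) and outside repeats (5.21). With 1 library left out these ranged from -0.487 to 0.763 (HU), -0.721 to 0.529 (INO80) and -1.59 to -0.341 (Mot1); without the first Mot1 library HU (0.763) and Mot1 (-1.59) passed (exact permutation adjusted p = 0.0278 each).

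For breaks 251 to 1500 bp upstream, leaving out short lists gave 3.75 for INO80 and -12.5 for Mot1 (-7.00 without Ty-length frames); that design cannot pass for INO80 or Mot1 (smallest p 0.0556), so these lost calls say nothing about stability. It turned the INO80 effect without such frames (-0.750), which with 1 library left out ranged from 0.625 to 2.88 and passed without the first WT library with HU (exact permutation adjusted p = 0.0347). The Arp5 difference turned with the gene body (-1.50), midpoints (-9.00), peaks with a log p at or below the median (-5.00, used after seeing the data because most q-values were tied), wide peaks kept (-1.50) and without chromosomes I, III and VI (-1), and ranged from -3.00 to 17.0 with 1 library left out. Genes with breaks gained or lost were 0 with the gene body, 19 with 500 bp and 4 with peaks above the median score. The cause of each change was not tested. The replicate block changed no other call. Deviations of same-numbered Break-seq replicates had correlations of -0.106 to 0.405, with 2 of 28 over 0.1. Still, the first Break-seq list of each group held at least as many peaks as the second, such as 510 and 373 in WT. In most groups, though not in the double strain without HU, it also had more tRNA genes with a break peak, such as 12 and 5 in WT. Whether same-numbered replicates share more than the number was not tested. Depth per library is unknown, and lists of 5 to 40 peaks limit every Mot1 value.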

Other observations

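Among features other than tRNA genes, starts of the 138 cytosolic ribosomal protein genes had an Orc5 peak in 22.5% of cases without rapamycin and in 57.2% with it, and starts of the 82 snRNA and snoRNA genes in 28.0% and 53.7%. Of all protein-coding gene starts 18.0% and 24.7% had one. With 1 Orc5 library per condition and lists of 1415 and 1968 peaks, these differences were not tested. Ribosomal protein gene starts also had a break peak in at least 1 list in 13.8% of cases, close to the 12.7% of tRNA genes, and all protein-coding starts in 5.06%.

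Mitochondrial tRNA genes had break peaks as well, at 15 and 7 of 24 genes in the WT libraries, 2 and 7 with HU, 12 and 9 in the INO80 libraries and 13 and 7 with HU. The double strain had them at 7 and 2, and at 2 and 2 with HU, and the 4 Mot1 libraries at none. The 2 WT libraries without HU held 64 and 27 mitochondrial break peaks, and each Mot1 library 0. Since the tiles did not cover the mitochondrial genome, these counts have no background and are not a result about tRNA genes.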
